A study of Homo sapiens with 12 samples.

Results

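The 2 by 2 drug design was examined as a whole, using all 12 of 12 samples of the series. Each sample was a dish of A375 cells, 1 human melanoma line that carries mutant BRAF, and each received DMSO, tretinoin, vemurafenib or both drugs (the combination) for 8 h at a labelled dose of 5 uM, with 3 replicates in each of the 4 groups. The DMSO dishes carry the same dose label although they received the vehicle. For every gene, the effect of tretinoin in the presence of vemurafenib (combination minus vemurafenib) was compared with its effect without vemurafenib (tretinoin minus DMSO). The difference of these differences, on the log2 scale, is called the interaction estimate here. A positive estimate places the combination above the level that the single-drug fold changes would give if they multiplied (above additivity), and a negative one places it below.

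Tretinoin is all-trans retinoic acid, which binds nuclear retinoic acid receptors. These receptors pair with retinoid X receptors on DNA and switch on developmental regulators such as the HOX genes, as well as enzymes that break retinoic acid down. Vemurafenib inhibits mutant, constitutively active BRAF, which shuts off the MEK and ERK kinases in such melanoma cells and lowers the ERK-driven transcription factors, growth genes and cell cycle genes. Some ERK targets are regulated by other inputs as well, and a factorial design shows on which genes 1 drug changes the response to the other.

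The libraries held 13510235 to 21534377 counts. MITF, PAX3, S100B, CSPG4 and PRAME were detected in every sample, and so were TYRP1, PMEL, MIA and MLANA at lower counts. SOX10 had 0 counts in all 12 and TYR had 1 count in 1 sample, so the labelled melanoma identity rests on part of the lineage markers. Reads shared by overlapping genes were not counted, so 0 counts do not by themselves show that a transcript was absent. Tretinoin replicate 1 stood apart: the chi-square per degree of freedom between it and the other tretinoin libraries was 19.1 and 21.8, against 2.56 between those and 2.63 to 8.38 in the other groups. The 13 mitochondrially encoded genes summed to 4197 to 4962 CPM (counts scaled to the library total with TMM normalization) in DMSO, 7232 to 11128 in tretinoin, 7471 to 7754 in vemurafenib and 8285 to 13953 in the combination. The dishes were treated in triplicate, and p-values measure only the spread between these 3 dishes of 1 line.

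Few genes were called as departing from additivity. With 3 replicates per group this is a count of calls and does not give the number of genes that depart. Of 16740 genes tested, 135 passed the interaction test (0.806%), with 64 above additivity (0.382%) and 71 below it (0.424%), by edgeR's quasi-likelihood test at a Benjamini-Hochberg adjusted p under 0.05. The median interaction estimate over all genes was -0.01 and its median standard error 0.168, and 2619 genes had an unadjusted p under 0.05. Among the called genes, the estimates above additivity had a median of 0.69 and ran from 0.42 to 2.88, and those below had a median of -0.79 and ran from -0.48 to -4.91. A departure of at least 1 on the log2 scale was seen for 11 genes above and 29 below. The plot of estimates against expression level shows that the largest negative values lay among genes of low expression.

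**Figure D1:**
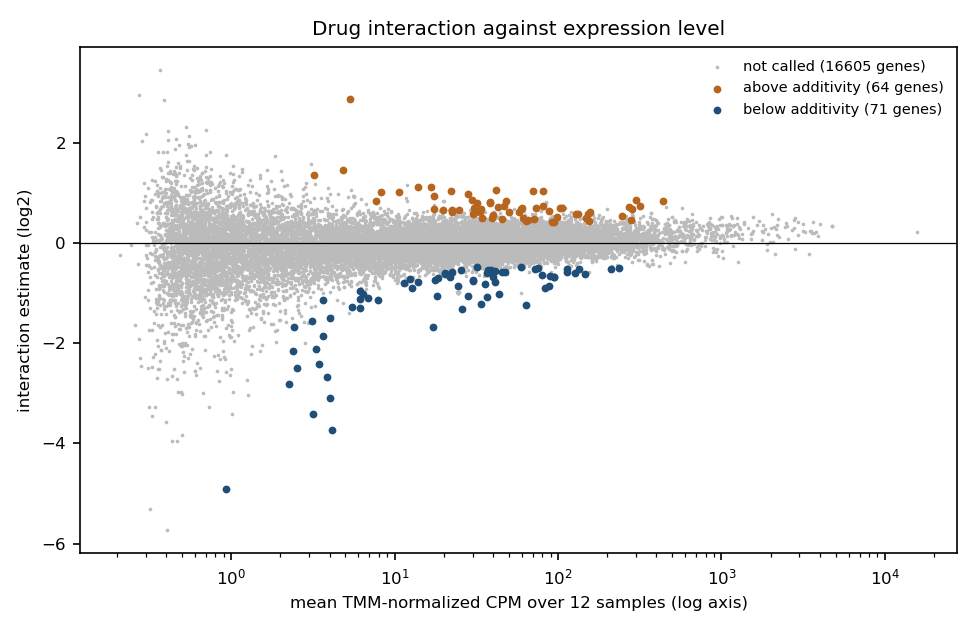
Each point is 1 of 16740 genes, with its mean TMM-normalized CPM over 12 samples on a log axis and its interaction estimate on the log2 scale. The 64 genes called above additivity (brown) reached 2.88, and the 71 called below (blue) reached -4.91. The spread of uncalled genes (grey) widens towards low expression.

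These counts depended on single libraries. Without tretinoin replicate 1 the test called 121 genes above and 144 below, including 134 of the 135, and the exception was SCUBE3. Leaving out DMSO replicate 2 left 60 calls in all, and leaving out vemurafenib replicate 2 or combination replicate 2 left 64 and 65. No called gene changed sign in any of the 12 fits that left out 1 sample, and 27 of the 64 and 21 of the 71 were called in every one of them. With total counts as the only normalization, 78.6% of calls lay below additivity in place of 52.6%, and the median estimate of all genes moved to -0.11. The genes described below with all 12 of their values are mostly those called in each of the 12 fits, and the number of fits is given for the others.

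The pattern of the departures can be read from the tretinoin effect on each side of the design. Both simple effects use the same samples as the interaction, so the pattern is a description with no test of its own. Over all genes, tretinoin alone changed 5.68% (3.48% higher, 2.2% lower) and tretinoin on vemurafenib changed 4.47% (2.27% higher, 2.2% lower). Of the 64 genes above additivity, tretinoin raised 31 only in the presence of vemurafenib, raised 11 on both sides and more strongly with vemurafenib, lowered 17 only in its absence, and lowered 5 without and raised them with it. Of the 71 genes below additivity, tretinoin raised 41 only in the absence of vemurafenib, lowered 21 only in its presence, lowered 2 on both sides and more strongly with vemurafenib, and raised 5 without and lowered them with it. The other 2, ELF1 and PHF21A, passed on neither side.

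Vemurafenib alone changed 52.6% of all genes (26.4% higher, 26.3% lower), and vemurafenib on tretinoin changed 49.1%. Among the genes above additivity, vemurafenib alone lowered 52 and raised 5. Among those below, it lowered 15 and raised 48. For 28 genes above and 22 below, the vemurafenib effect was called with and without tretinoin and was smaller with it, and for 18 above and 18 below it was called only without tretinoin. It was larger with tretinoin for 5 above and 15 below. The vemurafenib effect was called on both sides with opposite signs for 6 above and 8 below, and only with tretinoin for 7 above and 8 below. The DMSO and vemurafenib samples enter the interaction and the vemurafenib effect with opposite signs, so these directions are not independent of the interaction.

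**Figure D2:**
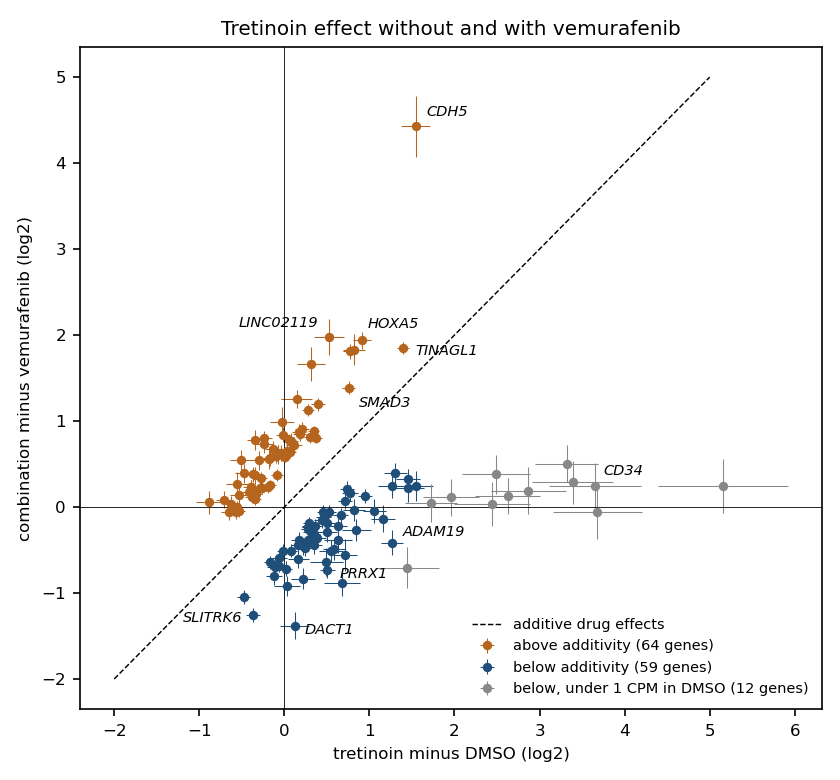
Each point is 1 of the 135 called genes, with the tretinoin effect without vemurafenib on the horizontal axis and with vemurafenib on the vertical axis, both on the log2 scale, and bars of 1 standard error. Genes above the dashed line of additive effects (brown) include CDH5 at 1.54 and 4.43, genes below it (blue) include DACT1 at 0.12 and -1.38, and the 12 genes under 1 CPM in DMSO (grey) lie to the right.

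The first group comprised 11 genes that tretinoin raised on both sides and more strongly with vemurafenib. They include the transcription factors HOXA5, HOXC13, FOXC1, SMAD3 and EGR3, and CDH5, IFFO2, ST3GAL4, TNFAIP2, TINAGL1 and FAM3C. Their median tretinoin effect was 0.76 without and 1.39 with vemurafenib.

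HOXA5 (GRCh38 chr7:27141052-27143668, minus strand), a homeobox factor of the anterior HOXA cluster, had 11.3, 9.25 and 10.7 CPM in DMSO, 17.3, 20.3 and 21.1 in tretinoin, 12.8, 11.4 and 12.6 in vemurafenib and 49.2, 44.1 and 47.2 in the combination. All 3 combination samples lay far above every other sample, while DMSO and vemurafenib were close. The interaction was 1.03 ± 0.14 (SE, n = 3 per group; edgeR adjusted p = 0.00238).
HOXC13, a homeobox factor of the posterior HOXC cluster (chr12:53938765-53946544, plus strand), read 20.5, 18.4 and 20.1 CPM in DMSO, 28.2, 24.2 and 25.6 in tretinoin, 26.6, 24.1 and 24.9 in vemurafenib and 57.2, 55.4 and 60.3 in the combination. Each drug alone gave a similar level and both together gave a level that no other group reached, with an interaction of 0.80 ± 0.12 (adjusted p = 0.00333).
FOXC1, a forkhead factor of neural crest and mesenchyme development (chr6:1609972-1613897, plus strand), followed the same order, at 34.6, 32.4 and 31.2 CPM in DMSO, 42, 37.6 and 39.4 in tretinoin, 38.9, 38.3 and 36.7 in vemurafenib and 80.4, 83.2 and 85.1 in the combination. Its single-drug groups overlapped each other and the combination stood apart. The interaction was 0.85 ± 0.10 (adjusted p = 0.000467).

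IFFO2, which encodes an intermediate filament family protein (chr1:18904281-18956686, minus strand), was 45.9, 52.3 and 53.1 CPM in DMSO, 96.8, 79.4 and 82.4 in tretinoin, 33.1, 30.4 and 33.8 in vemurafenib and 110.2, 113.9 and 116.4 in the combination. Vemurafenib alone lowered it below every DMSO sample, yet the combination exceeded every tretinoin sample. The interaction was 1.04 ± 0.12 (adjusted p = 0.00045).
SMAD3, a transducer of TGF-beta signals that is also counted in the retinoid response list, had 116.5, 136.4 and 130.2 CPM in DMSO, 236.4, 205.6 and 206.5 in tretinoin, 78.1, 80.1 and 76 in vemurafenib and 191.6, 215 and 205.6 in the combination. The combination samples overlapped the tretinoin samples, although vemurafenib alone was the lowest group. Tretinoin raised SMAD3 by 0.76 without and 1.39 with vemurafenib (interaction 0.63 ± 0.11, adjusted p = 0.00865).

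CDH5, the adhesion protein VE-cadherin of endothelial cells, had the largest positive estimate. It read 4.19, 4.32 and 5.17 CPM in DMSO, 15.2, 14.1 and 11 in tretinoin, 0.208, 0.144 and 0.0601 in vemurafenib and 2.48, 3.62 and 3.35 in the combination. The vemurafenib values correspond to 4, 3 and 1 counts, and the combination lay below DMSO in every sample. Tretinoin raised CDH5 by 1.54 without and 4.43 with vemurafenib on the log2 scale, an interaction of 2.88 ± 0.45 (adjusted p = 0.00553). On the scale of CPM the combination departed from the additive level by -5.85 ± 1.36 (SE), below additivity, so the direction for CDH5 depends on the scale. CDH5 was among the endothelial markers, of which the other two, PECAM1 and VWF, had interactions that did not pass. The 3 endothelial markers summed to 5.28 to 6.55 CPM in DMSO, 12.7 to 17.2 in tretinoin, 2.4 to 3.17 in vemurafenib and 5.34 to 6.2 in the combination. CDH5 itself is part of this sum, so the sum is no separate measure of endothelial cells. Vemurafenib alone changed CDH5 by -4.96, PECAM1 by -0.83 (edgeR adjusted p = 0.119) and VWF by 2.13 (edgeR adjusted p = 0.00132). The part of other cells in the CDH5 result was not tested.

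EGR3, an immediate early zinc finger factor, also belongs to this group, with 12.9, 11.1 and 13.3 CPM in DMSO, 26.4, 21.4 and 18.3 in tretinoin, 1.82, 1.59 and 2.22 in vemurafenib and 6.38, 6.74 and 6.7 in the combination. No 2 groups overlapped. Its interaction of 1.01 ± 0.22 (adjusted p = 0.041) was called in 2 of the 12 fits that left out 1 sample, and on the CPM scale the departure was -4.91.

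The second group comprised 31 genes that tretinoin raised only in the presence of vemurafenib, and vemurafenib alone lowered 27 of them (beside 26.3% of all genes). Their median tretinoin effect was -0.04 without and 0.65 with vemurafenib. Receptors, secreted factors and stress genes are among them.

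EPHA2, a receptor tyrosine kinase for ephrins and a listed output of ERK signalling, read 451.4, 559.4 and 559 CPM in DMSO, 524.5, 511.8 and 513 in tretinoin, 56.4, 62.4 and 60.4 in vemurafenib and 99, 113.6 and 108.7 in the combination. Tretinoin and DMSO overlapped, and the combination lay above every vemurafenib sample but far below every DMSO sample. Under vemurafenib EPHA2 fell by 3.13 on the log2 scale without tretinoin and fell by 2.27 with it, an interaction of 0.86 ± 0.12 (adjusted p = 0.00238).
IGFBP3, a secreted binding protein of insulin-like growth factors, showed the same form, with 491.2, 595.5 and 529.3 CPM in DMSO, 500.1, 496.9 and 517.6 in tretinoin, 34.7, 39 and 40 in vemurafenib and 56.2, 59.3 and 56.5 in the combination. Most of the vemurafenib effect remained in the combination. The interaction was 0.69 ± 0.11 (adjusted p = 0.00568).
RIPK4, a kinase known from keratinocyte differentiation, had 23.1, 27 and 28.8 CPM in DMSO, 22.5, 19.1 and 20.8 in tretinoin, 7.06, 6.98 and 7.75 in vemurafenib and 11.9, 11.8 and 13.7 in the combination. Combination and vemurafenib did not overlap, and both lay below the other groups (interaction 1.13 ± 0.15, adjusted p = 0.00238).

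CCN2, a secreted matricellular protein and a classic YAP-TEAD target, had 93.2, 115.8 and 101.9 CPM in DMSO, 90, 83.7 and 89.7 in tretinoin, 43.4, 48.3 and 52 in vemurafenib and 74.4, 88.8 and 86.2 in the combination. Here 2 of the 3 combination samples lay within the range of the tretinoin samples and replicate 1 lay below it, and all were above every vemurafenib sample. The tretinoin effect was -0.24 without vemurafenib (not passing, adjusted p = 0.122) and 0.80 with it (adjusted p = 1.97e-05), an interaction of 1.04 ± 0.13 (adjusted p = 0.000854). Of 18 YAP-TEAD pathway genes tested, CCN2 was the 1 called (5.56%, beside 0.806% over all genes), and the list's median estimate was 0.01. ANKRD1, another listed target, had an estimate of 1.16 ± 0.32 that did not pass (adjusted p = 0.107).

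IRF1, the interferon regulatory factor, read 25.5, 26.9 and 25.9 CPM in DMSO, 29.3, 29.2 and 30.1 in tretinoin, 11.6, 12.7 and 12.9 in vemurafenib and 23.4, 22.9 and 20.8 in the combination. The combination lay between vemurafenib and DMSO with no overlap, and the interaction was 0.67 ± 0.11 (adjusted p = 0.00848). In GENCODE 29, 22% of its exon bases are shared with another gene, where reads were not counted. IRF1 was the 1 call among 35 interferon-stimulated and class I genes (2.86%, beside 0.806% over all genes), whose median estimate was 0.01.

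DDIT4, an inhibitor of mTORC1 induced by stress, differed from these in that vemurafenib alone left it near DMSO. It had 74.8, 79.9 and 75.5 CPM in DMSO, 71, 77.4 and 76.9 in tretinoin, 85.3, 79.9 and 72.4 in vemurafenib and 124.7, 121.9 and 116.4 in the combination. The other 3 groups overlapped and the combination stood above all of them, with an interaction of 0.64 ± 0.10 (adjusted p = 0.00553). Of its exon bases 41.2% are shared with another gene. PDE5A, a phosphodiesterase that breaks down cyclic GMP, was the case that vemurafenib raised, at 2, 3.11 and 3.06 CPM in DMSO, 3.45, 2.85 and 2.85 in tretinoin, 15.5, 15.7 and 13.1 in vemurafenib and 34.3, 38.2 and 33.3 in the combination. The combination was the highest group in every sample (interaction 1.11 ± 0.22, adjusted p = 0.019, called in 8 of the 12 fits that left out 1 sample).

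Other genes of this group that were called in all 12 fits, chosen after their values were seen, were RCAN1, an inhibitor of calcineurin (0.70 ± 0.10), TBX2, a T-box factor (0.98 ± 0.15), UPP1, a uridine phosphorylase (0.70 ± 0.12), RHOB, a small GTPase (0.58 ± 0.10), KLF9, a Kruppel-like factor (0.70 ± 0.12), and EMP1, a membrane protein (0.72 ± 0.11). Less firm were LINC02119, a non-coding RNA (1.45 ± 0.28, adjusted p = 0.0163), and TRPM3, a cation channel (1.35 ± 0.26, adjusted p = 0.0182), each called in 9 of the 12. The sample plot gives 12 of the genes above additivity beside their additive level.

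**Figure D3:**
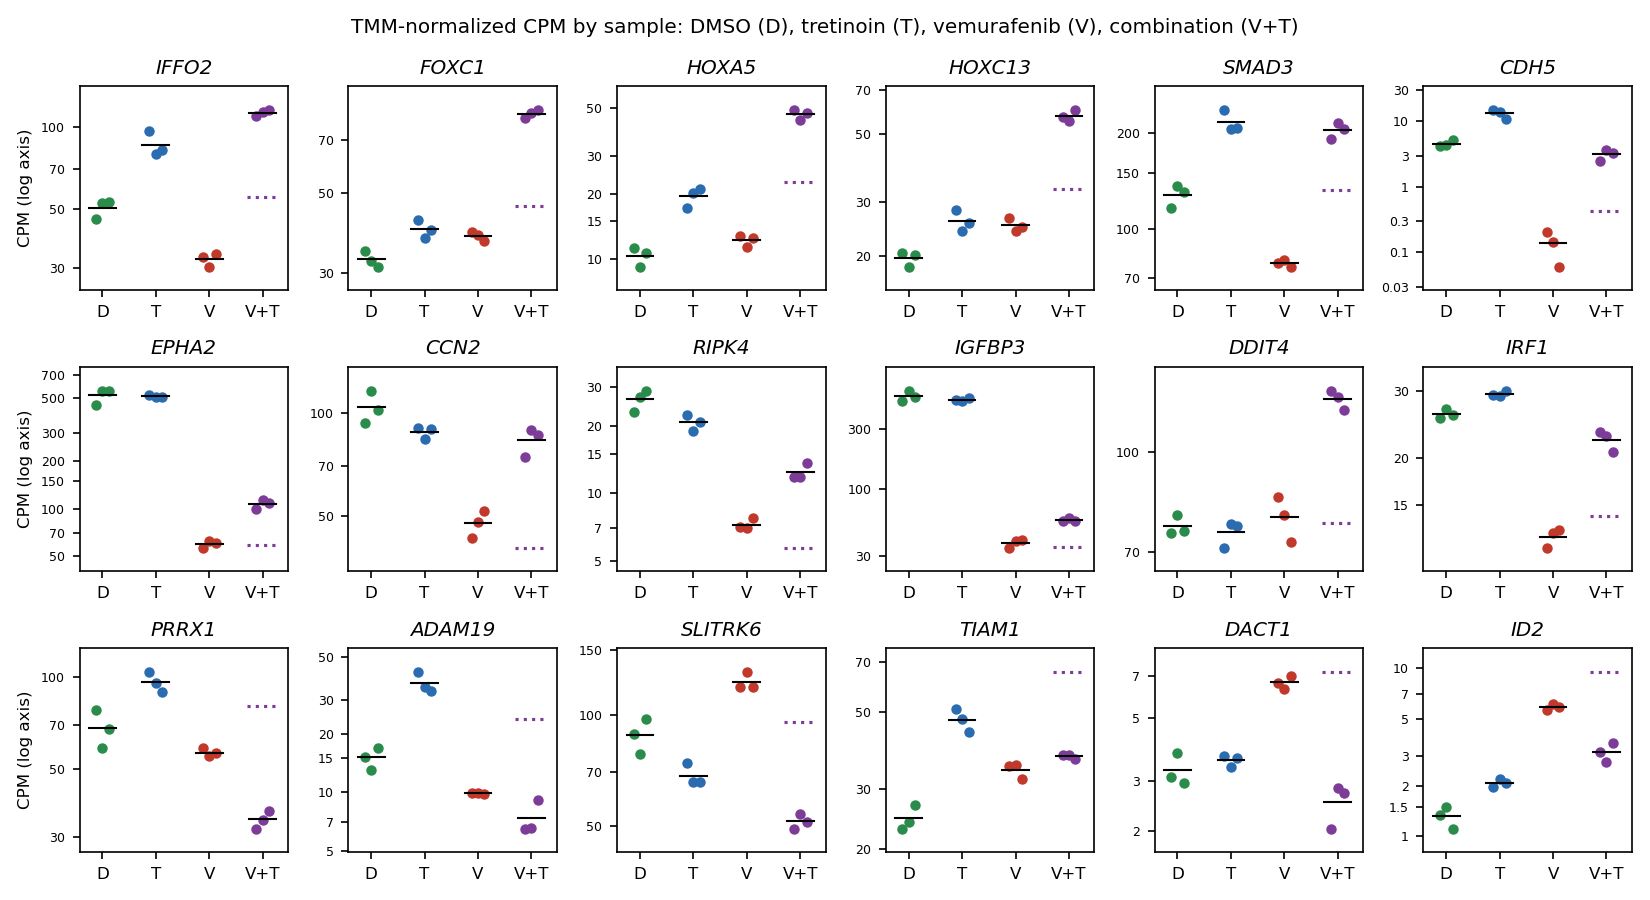
TMM-normalized CPM on log axes for 18 called genes in each of the 12 samples, with black bars at the group means and dotted lines at the combination level that additive log2 effects would give. The combination samples of the first 12 genes lie above the dotted line and those of the last 6, PRRX1 to ID2, below it.

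In the remaining genes above additivity, tretinoin alone lowered expression. It lowered 17 only in the absence of vemurafenib, with a median effect of -0.53 without and 0.12 with the drug, and 1 of the 17, SNAPC1, was called in all 12 fits that left out 1 sample. For STC2, RAB20, MGLL, HOXB2 and CDR2 it lowered expression without vemurafenib and raised it with vemurafenib. RAB20, a small GTPase, had 57, 67.1 and 60 CPM in DMSO, 34.8, 46.2 and 47.4 in tretinoin, 22.6, 22.6 and 30.9 in vemurafenib and 39.1, 36.5 and 35 in the combination. Tretinoin and combination samples overlapped, and vemurafenib was the lowest group. The effect of tretinoin was -0.51 without and 0.54 with vemurafenib (interaction 1.06 ± 0.17, adjusted p = 0.00607). STC2, a secreted stanniocalcin, had effects of -0.47 and 0.39 (interaction 0.87 ± 0.15, adjusted p = 0.00901).

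Below additivity, 5 genes reversed in the opposite direction: tretinoin raised PRRX1, PFKFB4, TANC2, HAPLN1 and FCHSD2 without vemurafenib and lowered them with it, and all 5 were called in every fit that left out 1 sample. PRRX1, a homeobox factor of mesenchymal cells (chr1:170662728-170739419, plus strand), read 78, 58.6 and 67.6 CPM in DMSO, 104.5, 96.2 and 89.6 in tretinoin, 58.6, 55.2 and 56.4 in vemurafenib and 31.9, 34.2 and 36.6 in the combination. Tretinoin was the highest and the combination the lowest group, and neither overlapped another group. The tretinoin effect was 0.51 without and -0.73 with vemurafenib (interaction -1.23 ± 0.13, adjusted p = 0.00045). PFKFB4, an enzyme that sets fructose 2,6-bisphosphate and so glycolytic flux, read 38.9, 23.4 and 35.4 CPM in DMSO, 52.1, 48.4 and 46.5 in tretinoin, 39.8, 39.5 and 34.9 in vemurafenib and 28.1, 26.5 and 26.9 in the combination. DMSO was the most variable group and overlapped both vemurafenib and the combination (interaction -1.07 ± 0.18, adjusted p = 0.00673). HAPLN1, a link protein of hyaluronan matrix, had effects of 0.34 and -0.31 (interaction -0.66 ± 0.11, adjusted p = 0.00691).

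The largest group below additivity comprised 41 genes that tretinoin raised only in the absence of vemurafenib, with a median effect of 0.95 without and -0.05 with the drug. ADAM19, a membrane metalloprotease (chr5:157395534-157575775, minus strand), had 15.3, 13.1 and 17 CPM in DMSO, 41.9, 34.8 and 33.3 in tretinoin, 9.97, 9.96 and 9.79 in vemurafenib and 6.49, 6.55 and 9.19 in the combination. All tretinoin samples lay above all DMSO samples, whereas every combination sample was below every vemurafenib sample. The effects were 1.27 (adjusted p = 7.31e-06) and -0.41 (adjusted p = 0.141), an interaction of -1.68 ± 0.19 (adjusted p = 0.00045).
TIAM1, an activator of the GTPase RAC, had 22.9, 24 and 26.8 CPM in DMSO, 51.2, 47.7 and 43.8 in tretinoin, 34.9, 35.2 and 32 in vemurafenib and 37.5, 37.5 and 36.6 in the combination. Each drug alone raised TIAM1, and the combination remained below every tretinoin sample (interaction -0.82 ± 0.12, adjusted p = 0.00238). MAP3K9, a kinase upstream of JNK signalling, had tretinoin effects of 1.16 and -0.13 (interaction -1.30 ± 0.21), and ATOH8, a basic helix-loop-helix factor, 1.46 and 0.33 (interaction -1.13 ± 0.18). Both were named after their values were seen and were called in all 12 fits.

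For 21 genes a lowering by tretinoin was called only in the presence of vemurafenib, with a median effect of 0.16 without and -0.61 with the drug. Vemurafenib alone raised 14 of these genes (beside 26.4% of all genes). DACT1, a Dishevelled-binding regulator of Wnt signalling, had 3.09, 3.78 and 2.96 CPM in DMSO, 3.67, 3.37 and 3.62 in tretinoin, 6.65, 6.3 and 7.03 in vemurafenib and 2.04, 2.83 and 2.72 in the combination. Vemurafenib was the highest group and the combination the lowest, below all DMSO samples (interaction -1.50 ± 0.23, adjusted p = 0.00553).
ID2, an inhibitor of basic helix-loop-helix factors, had 1.35, 1.49 and 1.11 CPM in DMSO, 1.98, 2.21 and 2.08 in tretinoin, 5.66, 6.16 and 5.89 in vemurafenib and 3.19, 2.79 and 3.62 in the combination. The combination lay between tretinoin and vemurafenib without overlap, and the interaction was -1.56 ± 0.26 (adjusted p = 0.00685). All tretinoin samples lay above all DMSO samples. The tretinoin effect was 0.68 without vemurafenib (not passing, edgeR adjusted p = 0.0706) and -0.88 with it (edgeR adjusted p = 0.00142). THRB, the thyroid hormone receptor beta (-0.72 ± 0.14, adjusted p = 0.0204), and NCOA2, a nuclear receptor coactivator (-0.67 ± 0.15, adjusted p = 0.0451), had the same pattern and were called in 7 and 3 of the 12 fits.

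SLITRK6, a neuronal transmembrane protein, and FZD8, a Wnt receptor, were lowered by tretinoin on both sides and more strongly with vemurafenib. SLITRK6 had 88.7, 78.3 and 98 CPM in DMSO, 74, 66.1 and 65.8 in tretinoin, 119.7, 131.4 and 119.4 in vemurafenib and 49.2, 53.9 and 51.5 in the combination. Vemurafenib gave the highest and the combination the lowest values. The tretinoin effect was -0.37 without and -1.26 with vemurafenib (interaction -0.89 ± 0.12, adjusted p = 0.00156). FZD8 had effects of -0.48 and -1.05 (interaction -0.57 ± 0.11, adjusted p = 0.0158, lost without DMSO replicate 2), and on the CPM scale its departure was 4.69 ± 2.91 (SE) above additivity.

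A set of 12 genes below additivity had under 1 CPM on average in DMSO, and it held the 10 largest negative estimates among called genes with a symbol. They were CD34, a surface protein of blood progenitors and endothelium, ITGA2B, a platelet integrin, JAK3, a kinase of lymphocyte cytokine receptors, STAB1, a scavenger receptor, CCND2, a D-type cyclin, the histone genes H1-5 and HIST1H3B, CELF2, ITM2A, PHACTR1 and the non-coding RNAs FAM30A and ENSG00000227706. CD34 read 0.258, 0 and 0.317 CPM in DMSO, 1.1, 3.49 and 3.07 in tretinoin, 3.38, 5 and 5.35 in vemurafenib and 6.05, 4.88 and 5.39 in the combination. CCND2 read 0.709, 1.22 and 0.475, then 1.76, 4.07 and 3.12, then 5.3, 4.76 and 5.41, then 6.33, 4.69 and 5.7 CPM in the same order. CD34 was called in 11 of the 12 fits that left out 1 sample (lost without DMSO replicate 2), and CCND2 in 2 of them. Of the others, ITM2A and H1-5 were called in all 12, ITGA2B and STAB1 in 11, ENSG00000227706 in 10, FAM30A in 6, JAK3 and PHACTR1 in 3, CELF2 in 2 and HIST1H3B in 1. limma-voom did not call 9 of the 12 genes and the replicate block did not call 5. All 12 genes had every other sample above every DMSO sample, and in all 12 tretinoin replicate 1 was the lowest tretinoin sample.

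Summed over the 12 genes, the level was 4.83, 5.13 and 5.12 CPM in DMSO, 15, 44.6 and 35.7 in tretinoin, 49, 47.3 and 58.6 in vemurafenib and 63.3, 48.9 and 56.4 in the combination. The sum was low in DMSO, intermediate in tretinoin replicate 1 and higher elsewhere. Their median interaction was -2.59, or -2.89 without tretinoin replicate 1. The genes were picked for a low DMSO level among called genes and passed the filter on low counts through the other groups, so the low DMSO level and the size of these estimates follow from the choice and support nothing. ENSG00000227706 had 1 count over the 3 DMSO samples, so its fitted estimate of -4.91 depends on the prior count and gives no bound. PTPRC, a pan-leukocyte marker, had 13, 26 and 14 counts in DMSO and 37 to 83 in the other samples, and its interaction did not pass (-1.04 ± 0.41, adjusted p = 0.253). The 16 markers of other cell types summed to 25.9 to 33.6 CPM in DMSO, 36.6 to 39.8 in tretinoin, 44.7 to 49.9 in vemurafenib and 45.7 to 56.7 in the combination, with KRT1 at 0 throughout. The 5 immune markers among them summed to 3.9 to 6.55, 5.75 to 9.09, 5.92 to 6.67 and 6.32 to 8.47 CPM, CD3E having at most 9 counts in any sample. In the same order, the 3 keratinocyte markers summed to 12.3 to 16.2, 9.16 to 14.8, 29.1 to 32 and 26.6 to 35.3 CPM. For the 3 fibroblast markers the sums were 2.9 to 4.05, 3.02 to 3.3, 6.98 to 8.83 and 7.2 to 9.19 CPM. The 3 endothelial markers, which include the called CDH5, were highest in tretinoin (12.7 to 17.2 CPM) and lowest in vemurafenib (2.4 to 3.17 CPM). In bulk RNA, a change in the number of cells of a type and a change in RNA per cell cannot be told apart, and the part of other cells in this result was not tested. Without these genes 59 genes remained below additivity and 64 above.

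**Figure D4:**
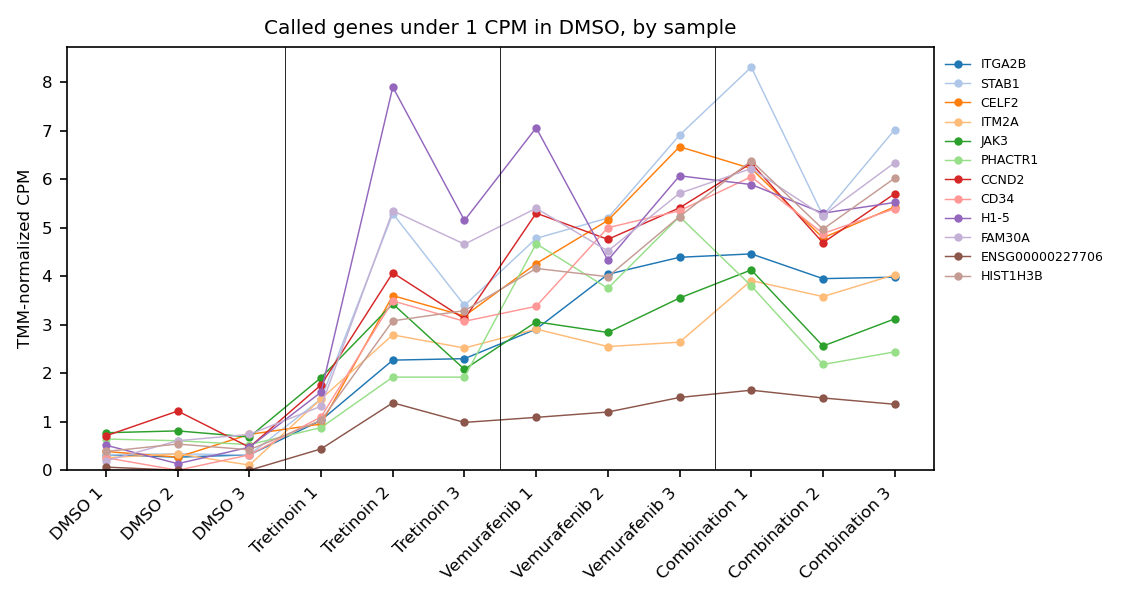
TMM-normalized CPM of the 12 called genes under 1 CPM in DMSO, 1 line per gene, in each of the 12 samples. The lines are low in the 3 DMSO samples, intermediate in tretinoin replicate 1 and higher in the remaining samples, at levels that differ between genes and groups.

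The same order appeared in 3 short non-coding genes annotated as miRNAs, ENSG00000277437, ENSG00000264063 and MIR3648-2, which were below additivity and belong to near-identical copies, so their counts are uncertain. MIR3648-2 had 18.7, 19.9 and 16 CPM in DMSO, 32.6, 50 and 47.2 in tretinoin, 48.8, 48.3 and 57.2 in vemurafenib and 76.2, 50.1 and 57 in the combination. DMSO was the lowest group and tretinoin replicate 1 the lowest of the treated samples (interaction -1.01 ± 0.22, adjusted p = 0.0371, called in 2 of the 12 fits that left out 1 sample). They were named after their values were seen.

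By function, 33 gene lists with 732 distinct tested genes held 27 of the calls (3.69%), 19 above and 8 below additivity, and 19 lists held at least 1. The lists were written with results of these data known, so this share is not evidence that they stand apart from the 0.806% over all genes. Their median estimate was 0.01, beside -0.01 over all genes. With total counts as the only normalization every list median moved down with the median of all genes, and 7 of the 16 positive ones stayed positive. These were HOX at 0.15, ATF4 at 0.14, AP-1 at 0.06, ribosome biogenesis at 0.05, retinoic acid synthesis, binding and breakdown at 0.04, and ERK outputs and heat shock chaperones at 0.03. The other 9 became negative, DNA replication, mitosis, retinoid response, YAP-TEAD and interferon genes among them. Without tretinoin replicate 1 the medians of PI3K, RAS-RAF-MEK-ERK core, receptor tyrosine kinase and ribosome biogenesis genes moved towards 0, to -0.02, -0.04, -0.09 and 0.07, and that of YAP-TEAD genes moved to 0.10. The G1 median moved to -0.017, the interferon one to 0.048, the TGF-beta and BMP one to -0.016, that of retinoic acid receptors to 0.089 and that of retinoid response genes to 0.143, while those of Kruppel-like factors, sterol genes and p53 targets turned positive at 0.002, 0.002 and 0.008.

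The HOX list had 3 calls among 33 genes (9.09%, beside 0.806% over all genes), HOXA5, HOXC13 and HOXB2, all above additivity. Of the 33 estimates 28 were positive, with a median of 0.26. Tretinoin alone raised 3 and lowered 1 of the 33, and on vemurafenib it raised 10 and lowered 0. Over all genes it raised 3.48% and lowered 2.2% alone, and raised 2.27% and lowered 2.2% on vemurafenib. HOXB2 had 76.4, 80.6 and 69.5 CPM in DMSO, 68, 53.8 and 56.9 in tretinoin, 15.5, 15.3 and 15.8 in vemurafenib and 21.7, 19.7 and 19 in the combination. Both groups with vemurafenib lay far below the others, and the combination exceeded every vemurafenib sample (interaction 0.72 ± 0.13, adjusted p = 0.0122). The call was lost without vemurafenib replicate 2 and with total counts as the only normalization.

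Of the retinoid genes themselves, 0 of 6 receptors and 0 of 10 tested genes of retinoic acid synthesis, binding and breakdown passed edgeR's interaction test. At an unadjusted p under 0.05 there were 2 of the 6 and 4 of the 10, and DESeq2 called 0 and 1. RARB, a receptor gene that retinoic acid induces, had tretinoin effects of 0.82 (adjusted p = 0.101) and 1.22 (adjusted p = 5.26e-05) and an interaction of 0.40 ± 0.33 (adjusted p = 0.579). DHRS3, which turns retinaldehyde back to retinol, had effects of 2.91 and 2.54 and an interaction of -0.37 ± 0.12 (adjusted p = 0.18). RARA had an interaction of 0.31 ± 0.12 (adjusted p = 0.253) and RARG one of -0.21 ± 0.09 (adjusted p = 0.282). Among 17 retinoid response genes, tretinoin raised 10 alone and 9 on vemurafenib, beside 3.48% and 2.27% of all genes. SMAD3 and TNFAIP2 were above additivity (11.8% of the list, beside 0.806% over all genes), and the list median was 0.09. TNFAIP2, a TNF-induced gene, was at 0.51 ± 0.10 (adjusted p = 0.0237), called in 4 of the 12 fits.

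Vemurafenib lowered 26 of 29 ERK outputs, beside 26.3% of all genes. EPHA2 was the 1 call of the list (3.45%, beside 0.806% over all genes), above additivity, with a list median of 0.13. At an unadjusted p under 0.05 there were 9, and DESeq2 called 3. CCND1, cyclin D1, had an interaction of 0.59 ± 0.14 just outside the threshold (adjusted p = 0.0509). Among 27 AP-1 and other immediate early genes, 3 were above additivity and 0 below (11.1%, beside 0.806% over all genes), with a median of 0.17. JUN, the AP-1 subunit, had 69.1, 94.7 and 92.5 CPM in DMSO, 62.2, 83.7 and 80.7 in tretinoin, 60, 64.8 and 73.2 in vemurafenib and 97.3, 98.8 and 96.1 in the combination. The combination was above every other sample, while the other groups overlapped (interaction 0.74 ± 0.16, adjusted p = 0.0427, called in 5 of the 12 fits). JUNB was at 0.62 ± 0.13 (adjusted p = 0.0238, called in 6). The core RAS-RAF-MEK-ERK genes had 0 calls of 20 in edgeR and in DESeq2 (median -0.10, 3 at an unadjusted p under 0.05), and BRAF itself had an interaction of -0.24 ± 0.13 (adjusted p = 0.371). AKT1 had -0.09 ± 0.09 (adjusted p = 0.674).

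The ATF4 and amino acid stress list had 2 calls of 23 (8.7%, beside 0.806% over all genes), DDIT4 and STC2, with 20 positive estimates and a median of 0.25. Tretinoin raised 2 and lowered 2 of its genes alone and raised 7 on vemurafenib. The shares over all genes were 3.48%, 2.2% and 2.27%. In the PI3K list 2 genes, DDIT4 among them, were above additivity (8%, beside 0.806% over all genes) and the median of 25 genes was -0.09. Glycolysis and hypoxia genes had a call on each side (8.33%, beside 0.806% over all genes). PFKFB4 was below and NDRG1, a hypoxia-induced gene, above (0.51 ± 0.12, adjusted p = 0.0464, called in 2 of the 12). The TGF-beta and BMP list likewise had SMAD3 above and ID2 below, of 29 (6.9%, beside 0.806% over all genes).

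For growth and division genes, DNA replication had 0 calls of 38 (median 0.08), although vemurafenib lowered 32, and mitosis had 0 of 27 (median 0.09). Ribosome biogenesis had 0 of 25 (median 0.15), with 24 lowered by vemurafenib. Over all genes vemurafenib lowered 26.3%. At an unadjusted p under 0.05 these lists had 7, 6 and 8 genes, and DESeq2 called 1, 0 and 1. Among 25 G1 cyclins, CDKs, inhibitors and E2F genes, CCND2 and CDK6 were below additivity (8%, 2 of 25, beside 0.806% over all genes). CCND2 is 1 of the 12 genes under 1 CPM in DMSO and was called in 2 of the 12 fits that left out 1 sample. limma-voom called 1 gene of the list. CDK6, a partner of D-type cyclins, had 149.7, 163.3 and 169.8 CPM in DMSO, 225.7, 190.2 and 176.9 in tretinoin, 96, 101.8 and 92.1 in vemurafenib and 84.4, 78.8 and 84.1 in the combination. Tretinoin samples were above all DMSO samples and combination samples below all vemurafenib samples (interaction -0.53 ± 0.12, adjusted p = 0.046, called in 2 of the 12 fits).

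Matrix genes, integrins and proteases had 0 calls of 40 and a median of -0.16, with 10 positive estimates (14 at an unadjusted p under 0.05, 1 called by DESeq2). Tretinoin raised 13 and lowered 1 of them alone, and raised 6 and lowered 4 on vemurafenib. Over all genes it raised 3.48% and lowered 2.2% alone, and raised 2.27% and lowered 2.2% on vemurafenib. Receptor tyrosine kinases and EGF family ligands had 0 calls of 31 (median -0.16, 7 at an unadjusted p under 0.05, 2 called by DESeq2), and PDGFRB, the PDGF receptor beta, lay near the threshold at -0.55 ± 0.13 (adjusted p = 0.0587). The nuclear receptor and coregulator list had THRB and NCOA2 below additivity among 23 (8.7%, beside 0.806% over all genes). Its median was -0.20, or -0.07 without tretinoin replicate 1. The mesenchymal switch and adhesion list had PRRX1 among 14 (7.14%, beside 0.806% over all genes, median -0.17). SNAI2, an EMT and neural crest factor, did not pass (-1.13 ± 0.29, adjusted p = 0.0871). The 13 mitochondrially encoded genes were each raised by tretinoin alone and by vemurafenib alone, beside 3.48% and 26.4% of all genes. Tretinoin on vemurafenib raised 5 of the 13, beside 2.27% of all genes. Of the 13, 0 departed from additivity in edgeR, in DESeq2 or at an unadjusted p under 0.05. Their median estimate was -0.26, and -0.01 without tretinoin replicate 1.

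Of the other lists, Notch had HES4 above among 19 (0.94 ± 0.21, adjusted p = 0.0395), Wnt had FZD8 below among 22 and Kruppel-like factors had KLF9 above among 16. Heat shock chaperones had DNAJB4 above among 21 (0.59 ± 0.13, adjusted p = 0.0488), and the NF-kB list had TNFAIP2 above among 21. In this order the shares called were 5.26%, 4.55%, 6.25%, 4.76% and 4.76%, beside 0.806% over all genes. limma-voom called 0 genes of the Notch list and 0 of the heat shock list, so HES4 and DNAJB4 depend on the method. The p53 targets (20 tested), apoptosis regulators (27), sterol and fatty acid genes (26), lysosome and autophagy genes (25) and melanocyte lineage genes (11) had 0 calls in edgeR and in DESeq2, with 1, 3, 2, 3 and 2 genes at an unadjusted p under 0.05 and medians of -0.02, 0.06, -0.06, 0.07 and -0.18.

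**Figure D5:**
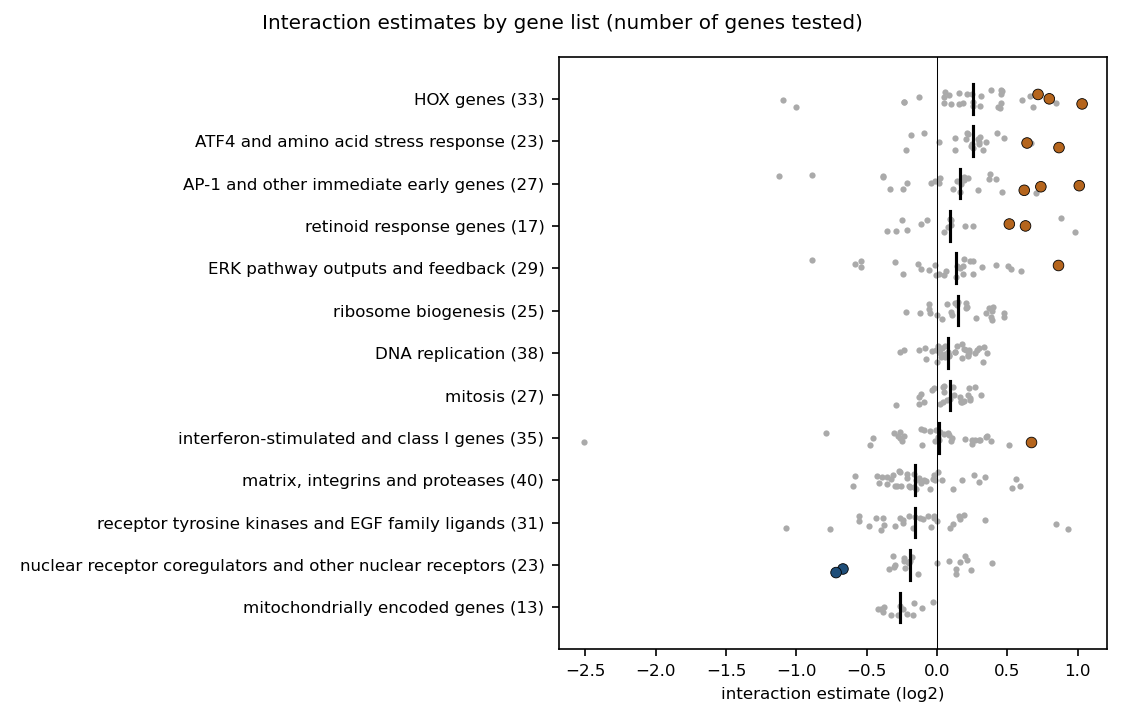
Interaction estimates on the log2 scale of each tested gene in 13 of the gene lists, with the number of genes in brackets, black bars at the list medians, grey points for uncalled genes and coloured points for called genes above (brown) or below (blue) additivity. The HOX and ATF4 medians, 0.26 and 0.25, lie to the right and the mitochondrial median, -0.26 (-0.01 without tretinoin replicate 1), to the left.

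Promoter sequence is shown for 3 called genes described above, chosen after their values were seen because their windows hold the letters of a motif searched. The 250 bases before the RefSeq start (build GRCh38.p14) are printed 5′ to 3′ on the strand of the gene, with the named motif in capitals: the TEAD site GGAATG in CCN2 (chr6:131951373-131951622, minus strand), the cyclic AMP response element TGACGTCA in EPHA2 (chr1:16156070-16156319, minus strand) and the AP-1 site TGANTCA in SLITRK6 (chr13:85799420-85799669, minus strand).
CCN2: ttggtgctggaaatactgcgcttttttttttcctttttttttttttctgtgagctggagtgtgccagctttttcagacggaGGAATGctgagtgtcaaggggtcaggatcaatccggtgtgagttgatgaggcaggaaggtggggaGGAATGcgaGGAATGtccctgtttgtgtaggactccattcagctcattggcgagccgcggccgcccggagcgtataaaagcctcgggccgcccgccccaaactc
EPHA2: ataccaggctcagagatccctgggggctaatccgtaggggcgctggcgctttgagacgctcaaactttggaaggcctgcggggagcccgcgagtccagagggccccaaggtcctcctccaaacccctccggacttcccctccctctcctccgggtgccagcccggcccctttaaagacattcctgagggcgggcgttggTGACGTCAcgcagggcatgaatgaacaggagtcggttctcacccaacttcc
SLITRK6: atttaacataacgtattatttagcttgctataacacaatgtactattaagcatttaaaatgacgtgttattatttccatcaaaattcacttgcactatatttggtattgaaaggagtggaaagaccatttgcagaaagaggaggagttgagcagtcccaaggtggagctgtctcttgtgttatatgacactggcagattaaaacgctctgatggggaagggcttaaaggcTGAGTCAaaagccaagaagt
CCN2 held 3 TEAD matches between 95 and 169 bases before the start, EPHA2 held 1 cyclic AMP element match 51 bases before it and SLITRK6 held 1 AP-1 match 20 bases before it. The EPHA2 window also holds the TEAD letters on the other strand (cattcc), left in lower case. These motifs were no common property of the called genes. Both strands of the RefSeq windows, from 250 bases before to 50 after the start, were searched for 49 of the 64 genes above, 59 of the 71 below and 11700 of 16714 tested symbols. The TEAD site was present in 6.12% of windows above, 11.9% below and 10.9% of all, the cyclic AMP element in 6.12%, 3.39% and 3.21%, and the AP-1 site in 2.04%, 1.69% and 4.79%. The E-box was in 10.2%, 3.39% and 10.0%, the ETS site in 0%, 3.39% and 8.21%, and the retinoic acid half-site (AGGTCA or AGTTCA) in 10.2%, 18.6% and 16.1%. The retinoic acid response elements DR5 and DR2 had 0 matches in either called group, beside 9 and 1 among all windows. At 0.0769% and 0.00855% of all windows they are too rare for 0 matches to be informative. A match is a stretch of letters and does not show binding.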

How the data were processed

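Poly(A) RNA of 12 A375 samples was sequenced as paired reads. Per the labels and the study's methods, the authors aligned them with STAR 2.5.3a to GRCh38.p10 and deposited raw counts per GENCODE gene, counted without regard to strand and without reads shared by overlapping genes; antisense partners can therefore not be told apart. Of 58347 gene IDs, 58084 were matched to GENCODE 29 for symbols and positions.

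Counts were fitted in edgeR 4.0.16 (R 4.3.3) with 1 term per treatment group. Genes were filtered with filterByExpr, which left 16740, scaled by TMM and tested with the quasi-likelihood test at a Benjamini-Hochberg adjusted p under 0.05. The interaction was the combination minus vemurafenib effect minus the tretinoin minus DMSO effect. Alternatives used DESeq2 1.42.0, limma 3.58.1 (voom), other scalings and filters, and each sample left out in turn. The fits were tested on simulated counts.

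Members and gene lists were chosen with earlier results of these data known. Named genes were the 10 largest estimates in each direction at 1 CPM or more in a group, the 5 smallest p in each direction, called members of the lists, 2 examples a list, AKT1, BRAF and the retinoid receptors; others are named as chosen after their values were seen, and a few genes that the rule names are not reported here. Totals ranged from 13510235 to 21534377 counts, and low counts limit precision. Replicates are dishes of 1 line.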

Additional observations from a re-analysis of the deposited data

Results flagged for a closer look

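The effect of tretinoin differed with and without vemurafenib, by the test of the difference itself, for 135 genes, and those named by size or p are given with their interaction estimate (log2). Above additivity these were CDH5 (2.88), LINC02119 (1.45), TRPM3 (1.35), RIPK4 (1.13), PDE5A (1.11), RAB20 (1.06), IFFO2 (1.04), CCN2 (1.04), HOXA5 (1.03), EPHA2 (0.86) and FOXC1 (0.85). Below additivity with at least 1 CPM in DMSO they were TIAM1 (-0.82), SLITRK6 (-0.89), PRRX1 (-1.23), DACT1 (-1.50) and ADAM19 (-1.68).

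Below additivity with under 1 CPM in DMSO they were CCND2 (-1.85), HIST1H3B (-2.11), PHACTR1 (-2.15), CELF2 (-2.41), ITGA2B (-2.50), FAM30A (-2.68), ITM2A (-2.81), STAB1 (-3.10), CD34 (-3.40) and H1-5 (-3.74). All 10 were lowest in tretinoin replicate 1 among the tretinoin samples, and all were called without that library. Over the 12 fits that left out 1 sample, HIST1H3B was called in 1, CCND2 and CELF2 in 2, PHACTR1 in 3 and FAM30A in 6. limma-voom did not call 8 of the 10 and the replicate block did not call 4.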

How the results depend on the processing

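The counts of genes above and below additivity were 64 and 71. DESeq2's Wald test gave 126 and 150, and with a beta prior 132 and 145. Total counts as the only normalization gave 36 and 132, no low-count filter 389 and 221, an adjusted p under 0.1 113 and 156, and a minimum absolute estimate of 1 gave 11 and 29. Leaving out 1 sample gave 31 to 121 above and 27 to 144 below. limma-voom, DESeq2 size factors, a minimum of 10 counts and the removal of genes under 1 CPM in DMSO, an alternative chosen after seeing the data, kept both counts within 1.5 times.

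Tretinoin's effect was called only with vemurafenib for 52 of the genes, only without it for 58 and on both sides for 23. These became 98 and 119 (first 2 classes) with DESeq2, 104 and 111 with the beta prior, 101 and 408 without the filter, 97, 123 and 39 at an adjusted p under 0.1, and 10, 22 and 8 at an estimate of at least 1. Leaving out 1 sample gave 26 to 104, 16 to 118 and 11 to 32.

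With the replicate block, 39 genes were above and 36 below, and the tretinoin effect was called only without vemurafenib for 25 and on both sides for 14. The replicate numbers did not pair the samples: the 18 same-numbered pairs had a mean correlation of -0.03 (-0.14 to 0.09), and 0 of 12 samples correlated best with its own number.

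On the scale of normalized counts 131 of 135 departures kept their sign. CDH5 (-5.85 CPM), EGR3 (-4.91 CPM) and TINAGL1 (-202.5 CPM) reversed by over 2 SE, which follows from the scale. FZD8 (4.69 CPM) also changed sign, but by less than 2 SE. No named gene reversed elsewhere. The cause of the other changes was not tested. Genes at a few counts, CDH5 under vemurafenib and ENSG00000227706 in DMSO among them, limit what their estimates show.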
